A study of Mus musculus with 16 samples.

Results

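H19, Igf2 and the other genes of the insulin-like growth factor (IGF) system were followed through chimeric mouse embryos, as 9 genes of the 29453 in the count matrix: the long non-coding RNA H19, the ligands Igf2 and Igf1, the receptors Igf2r, Igf1r and Insr, and the RNA-binding proteins Igf2bp1, Igf2bp2 and Igf2bp3. They were chosen by name with measured differences between Stat3 null and WT cells already known, so their values and their counts of calls in that contrast are a description, with no p-value printed and nothing read from the counts. Tests of these 9 genes were made among WT cells, between tissues within 1 genotype, and in cells that the contrast left out. The embryos were chimeras of CD1 background, taken at E7.5, at E8.5 or at E9.5 and made by injecting Stat3 null CD1 embryonic stem cells into WT CD1 blastocysts, and each was dissociated whole and sorted into tdTomato+ and tdTomato- cells for 10x 3' single-cell RNA-seq. The null cells lacked internal exons of Stat3, a transcription factor activated by cytokine receptors, carried a piggyBac H2B-tdTomato transgene driven by the CAG promoter, and came from embryonic stem cells derived in 2i medium and kept in 2i with or without LIF, which were later transfected with the transgene, selected with puromycin and picked as colonies by hand, whereas the WT cells were the host's own and had not passed through a stem cell line. Genotype, transgene, culture history and donor line therefore cannot be told apart in any difference between null and WT cells, and the number of lines injected is not given in the sources used here. Each group held 2 libraries at E7.5 and E8.5 and 4 at E9.5. Per the labels a library came from pooled embryos at the earlier stages and from a single embryo at E9.5, while the study's account gives fewer E9.5 embryos than libraries, so spread between libraries may in part be technical. The libraries of a group are called A to D here, and a letter shared by groups pairs nothing.

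H19 and Igf2 are neighbours in an imprinted domain, in which a gene is transcribed from the copy inherited from 1 parent. At the textbook locus a control region between them binds CTCF on the maternal copy, where H19 is transcribed and Igf2 is shielded from shared enhancers, and is methylated on the paternal copy, where H19 is silent and Igf2 is transcribed. IGF2 is a main growth factor of the fetus: it signals through the receptor tyrosine kinase IGF1R, with which the insulin receptor shares its build, and is cleared by IGF2R, itself imprinted and opposed by the antisense RNA Airn. IGF1 takes over much of the growth drive after birth, and the IGF2BP proteins bind Igf2 and many other transcripts in the cytoplasm of embryonic cells. Parental alleles and methylation were not measured in these data, which count transcripts.

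In the mouse genome (GRCm38) H19 (ENSMUSG00000000031) lies at chr7:142575529-142578143 on the minus strand and Igf2 (ENSMUSG00000048583) at chr7:142650766-142666816 on the same strand, with 72.6 kb between them. H19 has 7 annotated transcripts, the longest of 2286 bases in 5 exons. Libraries of the 3' kind read the end of a polyadenylated transcript, and the last 100 bases of H19 (chr7:142575529-142575628) are printed because they hold the polyadenylation signal, in capitals, next to which an H19 tag is made.
H19 last bases: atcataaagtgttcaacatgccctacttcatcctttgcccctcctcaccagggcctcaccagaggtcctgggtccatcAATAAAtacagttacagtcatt
Each of the pair also gives rise to a microRNA, which a 3' tag does not count. The mature arms are shown with the seed, bases 2 to 8, in capitals, from RefSeq (GRCm38.p6).
mmu-miR-675-5p: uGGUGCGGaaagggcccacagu
mmu-miR-675-3p: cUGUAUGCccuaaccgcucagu
mmu-miR-483-5p: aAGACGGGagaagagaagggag
mmu-miR-483-3p: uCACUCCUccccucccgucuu
The 5p arm of miR-675 lies at chr7:142577112-142577133, within an exon of 3 of the 7 H19 transcripts, and that of miR-483 at chr7:142654968-142654989, inside Igf2 but in no exon of its 9 transcripts. No seed is shared among the 4 arms. Of the 4 RefSeq promoter windows of Igf2 (250 bases before to 50 after a start), the one richest in CpG is printed with every CG in capitals, since CpG is the pair of letters at which imprinted regions are methylated; it lies at chr7:142658755-142659054, holds 24 CpG against a median of 7 over 32851 promoter windows, and 20% of those windows hold as many.
Igf2 promoter window: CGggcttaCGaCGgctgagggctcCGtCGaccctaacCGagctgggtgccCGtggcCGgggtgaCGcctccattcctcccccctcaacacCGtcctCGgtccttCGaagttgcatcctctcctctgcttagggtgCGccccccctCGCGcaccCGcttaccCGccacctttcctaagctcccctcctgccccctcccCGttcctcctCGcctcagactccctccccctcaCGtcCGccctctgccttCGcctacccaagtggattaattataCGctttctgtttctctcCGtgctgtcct
The STAT motif TTCNNNGAA, searched on both strands, occurred in 0 of the 9 windows found for 6 of the genes (Igf2, Igf2r, Igf1, Igf1r, Igf2bp2 and Igf2bp3) and in 8.30% of all windows. The other genes lie elsewhere: Igf2r at chr17:12682406-12769664, Igf1 at chr10:87858265-87937042, Igf1r at chr7:67952827-68233668, Insr at chr8:3122061-3279617, Igf2bp1 at chr11:95957163-96005940, Igf2bp2 at chr16:22059009-22163299 and Igf2bp3 at chr6:49085223-49214957.

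The matrix held 41832 cells in 16 libraries, of which 3395 were called doublets and 596 were sorted as WT yet carried a tdTomato UMI (a uniquely tagged transcript); 37841 cells remained, 360 to 4327 per library with 20682659 to 138613245 UMIs, and 488 of 37351 barcodes occurred in more than 1 library. The deposited cell types followed their markers, 27 of 28 marker genes in 7 classes standing more than 2-fold higher in their own class over 40 WT E9.5 types. Stat3 measured 1.16 to 2.53 CPM (UMIs scaled to 1000000 per summed set of cells) in null and 6.14 to 9.31 CPM in WT libraries, although 3' tags lie downstream of the deleted exons and so do not by themselves show the deletion. A tdTomato UMI was found in 89.8 to 98.3% of null-sorted cells in 7 of the 8 null libraries and in 72.3% in E8.5 null B. That library also stood apart for the imprinted adaptor Grb10, which measured 262 CPM there, 4.88 to 22.4 CPM in the other 7 null libraries and 193 to 373 CPM in WT libraries. For H19 itself E8.5 null A and E9.5 null D stood apart from the other null libraries, as given next. The medians, means and E9.5 counts of calls that turned on these libraries are also given without them. In summed cells, fewer transcripts per cell and fewer cells with the transcript cannot be told apart, so sums are followed below by counts per cell.

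H19 was low in null cells at every stage, and Igf2 was high. Averaged over the 7 cell types present in all E7.5 libraries, H19 measured 427 and 382 CPM in WT A and B against 50.4 and 62.0 CPM in null A and B. At E8.5, over 20 types, it measured 783 and 638 CPM in WT A and B, 350 CPM in null A and 13.6 CPM in null B. The 2 null libraries of that stage thus differed from each other far more than the WT pair, although both lay below WT. At E9.5, again over 20 types, H19 measured 420, 393, 425 and 457 CPM in WT A to D and 13, 21.5, 12.6 and 91.3 CPM in null A to D, so that null D was the highest null library and still below every WT library. Igf2 moved the other way: it measured 114 and 108 CPM in E7.5 WT A and B and 223 and 217 CPM in null A and B. At E8.5 it measured 344 and 254 CPM in WT A and B and 413 and 495 CPM in null A and B, the highest level falling in null B, where H19 was lowest. At E9.5 it measured 168, 152, 156 and 160 CPM in WT A to D and 314, 283, 279 and 302 CPM in null A to D. The groups did not overlap at any stage for either gene. The share of all genes set apart in this way was not counted. Some other genes of the system were also apart: Igf1 and Igf2bp2 at E7.5, Igf2r, Igf2bp1, Igf2bp2 and Igf2bp3 at E8.5, and Insr at E9.5. The E9.5 means of H19 were 424 ± 26.1 CPM in WT against 34.6 ± 38.0 CPM in null (SD, n = 4 each). Those of Igf2 were 159 ± 6.83 CPM against 295 ± 16.1 CPM (SD, n = 4 each). Without null D the null means were 15.7 ± 5.0 CPM for H19 and 292 ± 18.7 CPM for Igf2 (SD, n = 3). E9.5 null D, with the highest H19 of its group, had an Igf2 level inside the range of the other 3.

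**Figure D1:**
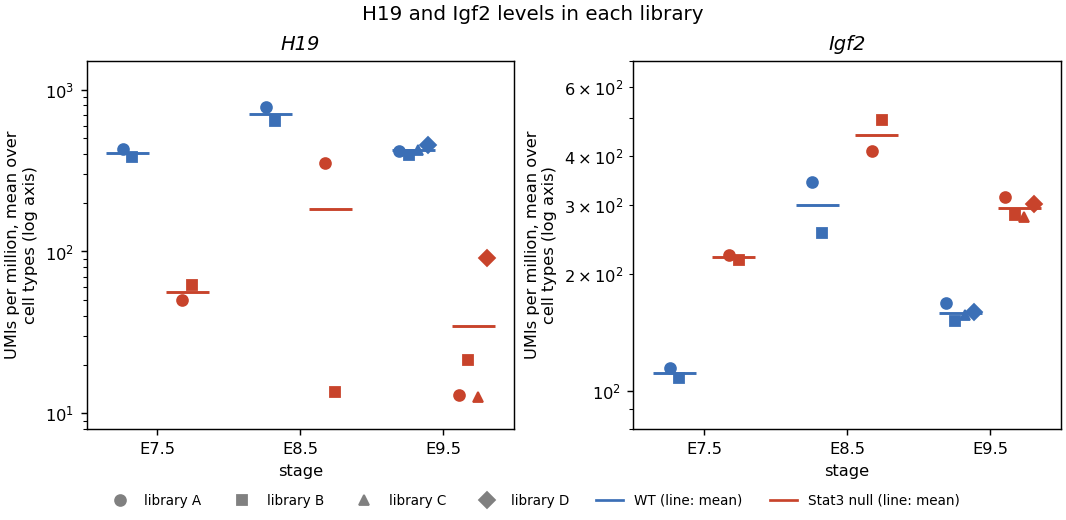
Mean level over cell types of H19 (left) and Igf2 (right) in each library, in CPM on a log axis, with a mark per library and a line at the group mean. H19 lies below WT in every null library, with E8.5 null A at 350 and E9.5 null D at 91.3 the nearest to WT, and Igf2 lies above WT in every null library.

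Within single cell types H19 was lower in null than in WT cells in 7 of 7 types at E7.5, 20 of 20 at E8.5 and 37 of 37 at E9.5, with median log2 fold changes of -3.13, -2.0 and -3.74 where the medians over all genes tested were near 0. As a description only, since H19 was chosen on this contrast, edgeR's quasi-likelihood fit (adjusted p under 0.05 and a change over 1 on the log2 scale) marked it as lower in 5, 1 and 9 of these types, beside 0.104%, 0.0325% and 0.0646% of all gene and type pairs of the stage, in the same order. The highest null library was below the lowest WT library in 7, 20 and 36 types, beside 18.5%, 17.7% and 4.68% of all pairs. At E7.5 the widest differences were in Ectoderm, where H19 measured 38.6 and 44.4 CPM in WT and 4.20 and 3.25 CPM in null (log2 fold change -3.35, SE 0.25), in Intermediate mesoderm (-3.24, SE 0.25) and in Paraxial mesoderm (-3.17, SE 0.21). At E8.5 they were in Migratory neural crest (-2.61, SE 0.85), Lateral plate mesoderm (-2.30, SE 1.54) and Pharyngeal endoderm (-2.16, SE 0.96). These errors were wide where the null pair split: in Lateral plate mesoderm null A measured 382 CPM and null B 12.9 CPM against 1158 and 952 CPM in WT. At E9.5 the widest were in Cardiopharyngeal progenitors of the second heart field, with 907, 941 and 951 CPM in WT B to D and 5.23, 10.5 and 6.76 CPM in null A to C (-6.98, SE 0.18), in Allantois (-6.56, SE 0.65) and in Migratory neural crest, where the 4 WT libraries measured 228 to 323 CPM and the 4 null libraries 2.22 to 13.7 CPM (-5.71, SE 0.30). Null D, the null library with the highest H19, entered neither the second heart field type nor Allantois, which rested on null A and B. Presomitic mesoderm (-2.21, SE 1.71), among the smallest differences, rested on null A and D. The types were thus not ranked over the same null libraries. The 1 type with overlap was the erythro-myeloid progenitors (EMP), with 70.2 to 163 CPM in 4 WT libraries, 1.37 CPM in null A and 81.3 CPM in null D. At E8.5 the H19 median was -6.10 without null A and -1.33 without null B, each with a single null library left. At E9.5 the number of types marked turned on single libraries. H19 was marked there in 20 of 35 types without null D (median -4.69), in 5 of 28 without null A and in 4 of 30 without null B. The share of all pairs called with a library left out was not counted, so these counts are not read as particular to H19.

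By the sign of the fit, Igf2 was higher in null than in WT cells in 7 of 7 types at E7.5, 15 of 20 at E8.5 and 37 of 37 at E9.5, with median log2 fold changes of 1.04, 0.54 and 0.88. With the same standing as a description, it was marked as higher in 4, 0 and 4 types, beside 0.0798%, 0.029% and 0.0566% of all pairs, and its lowest null library was above the highest WT library in 4, 13 and 27 types, beside 12.7%, 14.7% and 4.83%. With a median near the fold change of 1 that a call needs, its count depended on that threshold. By the adjusted p alone 19 E9.5 types passed, and the share of all pairs that did so was not counted. At E7.5 Igf2 stood highest over WT in Paraxial mesoderm, with 59.0 and 41.7 CPM in WT and 120 and 91.2 CPM in null (1.19, SE 0.18), Mesenchyme (1.05, SE 0.11) and Lateral plate mesoderm (1.05, SE 0.12). At E8.5 the order was led by Limb mesoderm, with 257 and 250 CPM in WT and 474 and 493 CPM in null (0.95, SE 0.11), Lateral plate mesoderm (0.83, SE 0.13) and Cardiopharyngeal progenitors of the first heart field (0.80, SE 0.62). At E9.5 it was led by Placodal ectoderm, with 79.0 and 84.3 CPM in WT A and D and 231 and 260 CPM in null A and B (1.55, SE 0.16), Presomitic mesoderm (1.32, SE 0.47) and Cranial mesoderm, where the 4 WT libraries measured 146 to 237 CPM and the 4 null libraries 367 to 507 CPM (1.15, SE 0.14). In E7.5 Ectoderm the fit gave 0.15 (SE 0.36), although Igf2 measured 17.4 and 9.10 CPM in WT and 16.7 and 8.36 CPM in null. Without E7.5 null A, 3 of the 7 types of that stage lay below 0. Without E8.5 null A the E8.5 median was 0.70, and without null B it was 0.45, each with a single null library left.

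Igf2 was not above WT in 5 E8.5 types, and 4 of them were neural tube types, a class taken by name as forebrain, midbrain, hindbrain and spinal cord types. The other was Optic vesicle (-0.10, SE 0.21), an outgrowth of the forebrain that this class leaves out. In the 5 E8.5 types of the neural tube the median Igf2 difference was -0.21 on the log2 scale, and 1 type lay above 0. In 3 types the whole null pair lay below the WT pair, beside 17.7% of all gene and type pairs of the stage. Summed over the E8.5 neural tube, Igf2 measured 22.8 and 24.1 CPM in WT. In null it measured 23.0 and 23.7 CPM, inside the WT range. The lowest log2 fold change was in Ventral hindbrain progenitors (-0.62, SE 0.25). In Dorsal spinal cord progenitors Igf2 measured 19 and 19.1 CPM in WT and 17.9 and 13.5 CPM in null. In the 5 mesoderm types of the same stage the Igf2 median was 0.78, with null wholly above WT in all 5, beside 14.7% of all pairs. H19 was lower in all 5 neural and all 5 mesoderm types there, with medians of -1.90 and -2.01. At E9.5 the medians for Igf2 were 0.64 in 10 neural types, 0.93 in 10 mesoderm types and 0.90 in 17 others. Null lay wholly above WT in 1, 10 and 16 of them, beside 4.83% of all pairs of the stage. In Dorsal spinal cord progenitors at E9.5 Igf2 measured 17.7 to 31.6 CPM in the 4 WT libraries and 56.2, 20.2, 31.4 and 63.5 CPM in null A to D, so null B and C lay inside the WT range. The difference between the classes was not tested.

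**Figure D2:**
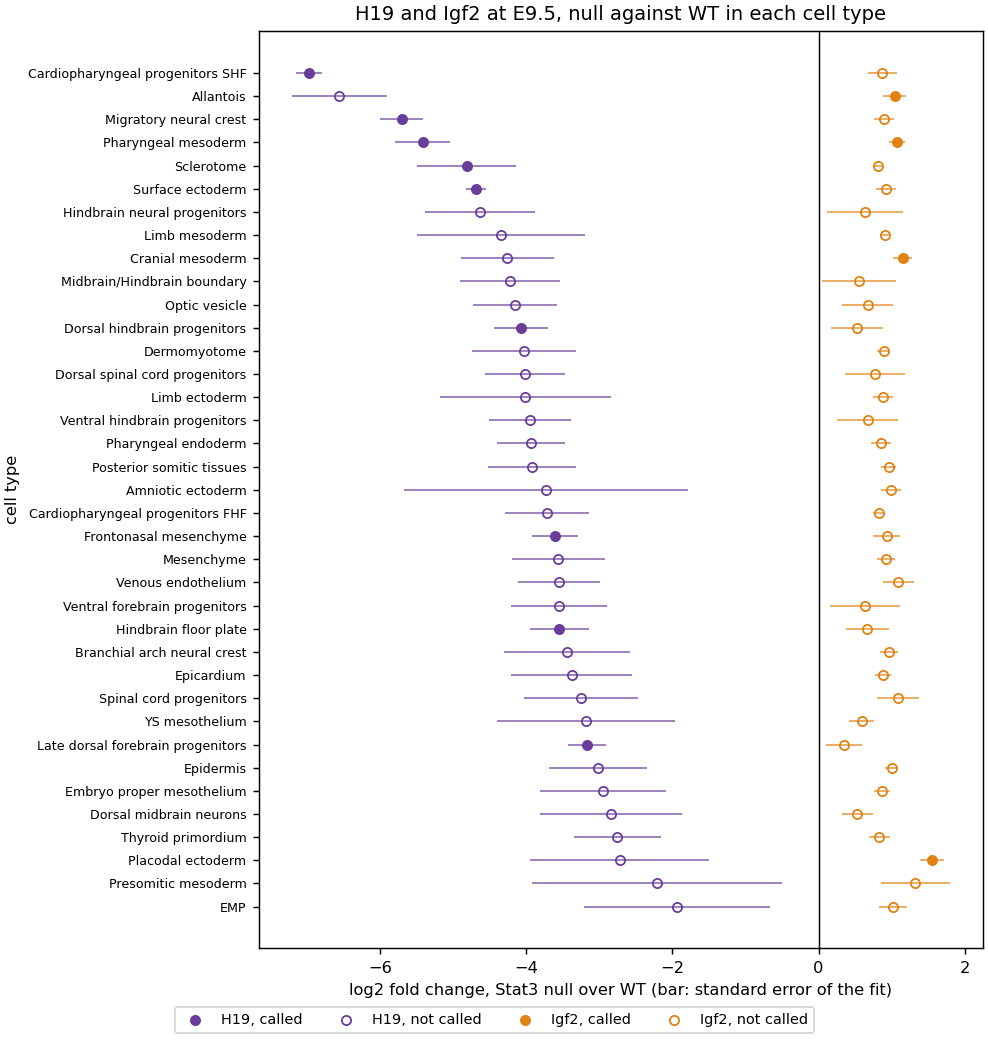
Log2 fold change of H19 and Igf2, Stat3 null over WT, in each of 37 E9.5 cell types, ordered by H19, with the standard error of the fit as a bar and filled marks for called values. H19 is below 0 in all 37 types, from -6.98 to -1.94, and Igf2 above 0 in all 37, from 0.35 to 1.55. Types differ in which null libraries entered.

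Counted cell by cell after thinning to 10000 UMIs, most null cells of 7 of the 8 null libraries had no H19 UMI. The count was made, with 0 cells lost to thinning, in the types where over 90% of WT cells of the stage carried H19. The high WT share given below was set by that choice of types. Outside these types, in E9.5 Dorsal spinal cord progenitors, thinned shares were 35.1 to 57.4% in WT and 1.36 to 12.7% in null libraries. No type lacked H19 in WT E9.5 cells (72.2 CPM in the lowest), so a share that free RNA alone would give could not be measured. Between 94.7 and 99.0% of WT cells of the kept types carried an H19 UMI in the 8 WT libraries. In null cells the share was 19.1% (95% Wilson interval 16.1 to 22.6) and 14.9% (9.62 to 22.3) in E7.5 A and B, 51.4% (49.3 to 53.4) and 8.78% (6.79 to 11.3) in E8.5 A and B, and 7.73, 8.62, 9.45 and 33.9% (30.7 to 37.4 for the last) in E9.5 A to D. These intervals cover counting error among cells of a library only. Median depths before thinning were 19089 to 41572.5 UMIs per cell in WT and 28438 to 59031 in null libraries. The unthinned shares were 98.6 to 100% in WT and 15.3 to 66.1% in null. Before thinning most cells of E8.5 null A (66.1%) and of E9.5 null D (59.0%) carried an H19 UMI. Igf2 was carried by 67.9 to 87.3% of WT cells and 73.6 to 96.0% of null cells in the same types. In E8.5 null A the cells did not gather at a middle level: 48.6% had no H19 UMI, 16.8% had 1 or 2, and 34.5% had 3 or more. In E9.5 null D 66.1% had none, 17.7% had 1 or 2 and 16.2% had 3 or more. In the other null libraries 1.30 to 11.1% of cells had 3 or more, against 74.9 to 90.7% in WT libraries.

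**Figure D3:**
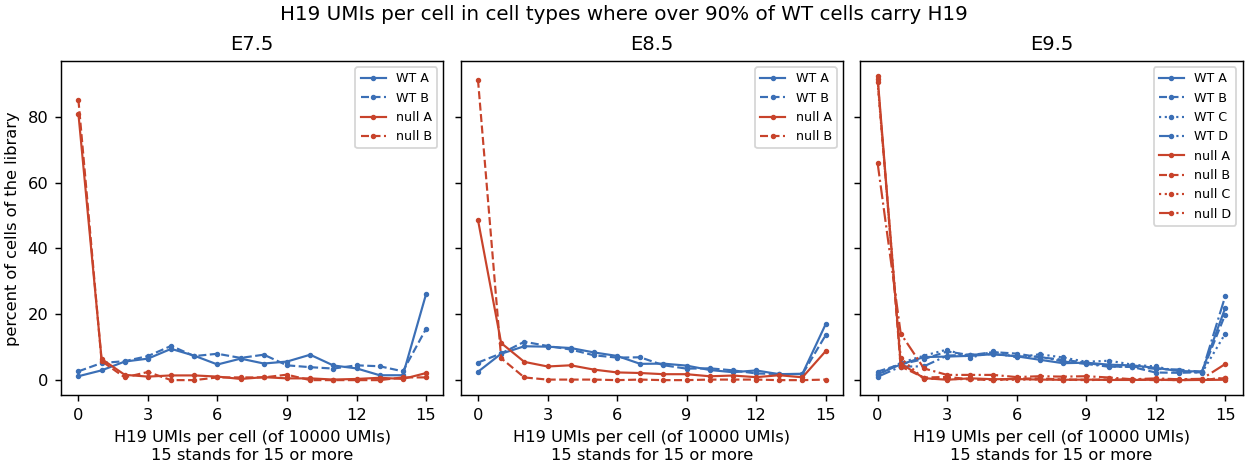
Percent of cells of each library at each number of H19 UMIs, after thinning to 10000 UMIs per cell, at 3 stages, in cell types where over 90% of WT cells carry H19. Null libraries (red) peak at 0 UMIs, and E8.5 null A, with 48.6% of cells at 0 and 34.5% at 3 or more, spreads over both the null and the WT range.

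In null libraries the Igf2 level followed the H19 state of the cell. In E8.5 null A, cells without H19 had Igf2 at 1.81 times the level of WT cells of the same types, cells with 1 or 2 UMIs at 1.57 times, and cells with 3 or more at 1.02 times. In E9.5 null D the ratios were 2.07, 2.09 and 1.10. The sets were formed by H19 UMIs, so their H19 levels are set by that choice and only Igf2 is read. In the other null libraries cells without H19 stood at 1.74 to 2.18 times WT. In E7.5 null A the ratio was 2.08 in the 453 cells without H19 and 1.26 in the 62 cells with 3 or more. The remaining null libraries had only 8 to 42 cells with 3 or more UMIs, at ratios of 1.24 to 1.75. WT cells ran in the opposite direction, with Igf2 at 0.403 to 0.797 times WT in cells without an H19 UMI and 0.911 to 1.15 times in cells with 3 or more. Few WT cells of the kept types lacked an H19 UMI, since 94.7 to 99.0% carried it, 98.8% of 337 cells in E7.5 WT A. Within cell types the order could be read in E8.5 null A and in 1 type of E7.5 null A, and in no other null library. In the 15 types of E8.5 null A with enough cells in both states, Igf2 in cells without H19 over that in cells with 3 or more had a median ratio of 1.70, from 0.916 to 2.20, and exceeded 1 in 14. In Mesenchyme of that library Igf2 measured 1487 CPM in 39 cells without H19 and 679 CPM in 60 cells with it, and in YS mesothelium 1872 CPM in 37 cells and 1000 CPM in 76. The exception was Cranial mesoderm, with 230 CPM in 46 cells and 251 CPM in 20. Erythroid cells, which hold little Igf2, kept the order, with 30.7 CPM in 332 cells without H19 and 18.6 CPM in 136 with it. Both states had like depth in E8.5 null A, with medians of 28960 and 27517 UMIs per cell. The cells of a library are not replicates, so no test was made.

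**Figure D4:**
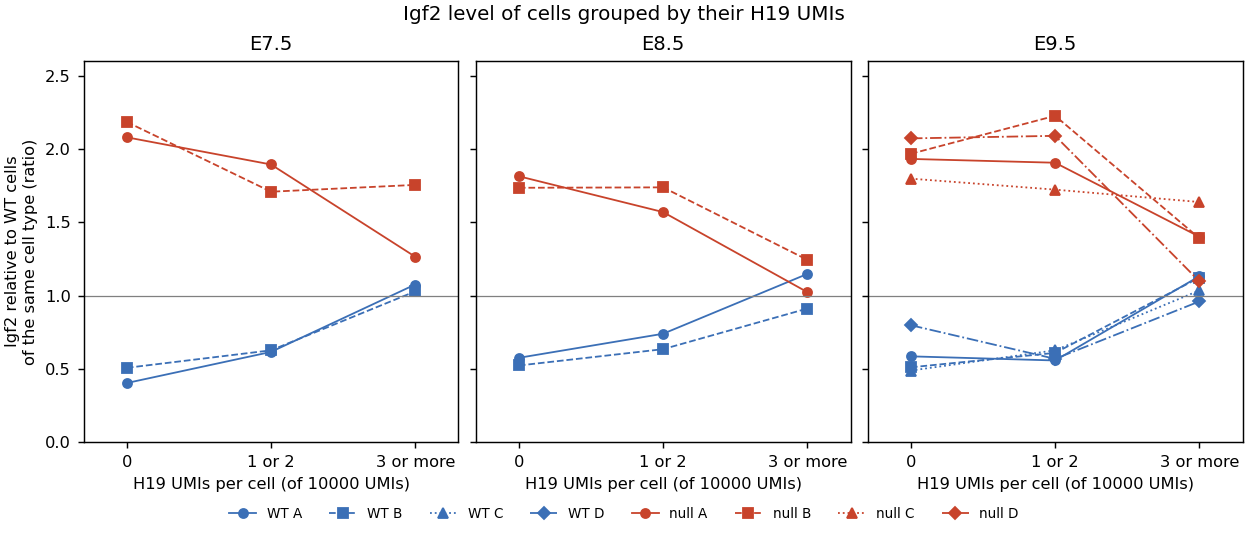
Igf2 level relative to WT cells of the same cell type (ratio, 1 marked by a line) in cells grouped by their H19 UMIs after thinning to 10000 UMIs, with a line per library, WT in blue and Stat3 null in red. In E8.5 null A the ratio runs from 1.81 without H19 to 1.02 with 3 or more H19 UMIs, while in each WT library it is higher with 3 or more H19 UMIs than without. Few WT cells are without an H19 UMI, since types were kept by the share of WT cells with H19.

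The tdTomato reporter was read beside these states. In E9.5 null A, H19 relative to WT was 0.422 in the 29 cells without a tdTomato UMI and 0.0150 in the 1621 cells with 3 or more, and null B and C ran the same way, from 0.527 to 0.0295 and from 0.780 to 0.0188. In E7.5 null A it was 0.280 in 26 cells without a tdTomato UMI and 0.139 in 410 cells with 3 or more, and in E7.5 null B 1.28 in 6 cells and 0.0447 in 100. In E8.5 null A it was 0.609 in 273 cells without a tdTomato UMI and 0.470 in 1366 cells with 3 or more. In E9.5 null D it was 0.499 in 9 cells and 0.191 in 706 cells. Among null-sorted cells with 3 or more tdTomato UMIs alone, 36.5% of E8.5 null A and 15.6% of E9.5 null D had 3 or more H19 UMIs, and Igf2 stood at 1.79 times WT without H19 and 1.02 times with it in the first, and at 2.08 and 1.09 times in the second. E8.5 null B, the null library with the lowest share of cells with a tdTomato UMI, had H19 at 0.0601 times WT in its 164 cells without a tdTomato UMI and 0.00962 times in the 201 cells with 3 or more. At E9.5 the cells without a tdTomato UMI were shallower than those with 3 or more. Their median UMIs were 18950 against 32126 in null A and 26614 against 37795.5 in null B. In null C they were 20766 against 48713, and in null D 19061 against 46442.5. The middle classes did not always lie between. With 2 tdTomato UMIs H19 was 0.0651 times WT in E7.5 null A and 0.00276 times in E9.5 null C. What part depth or WT cells in the null sort have in these values was not tested.

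Cells sorted as WT that carried a tdTomato UMI had been left out of the contrast, and in them the genes of the IGF system stood near the level of the other WT-sorted cells of the same library and type. H19 had a mean log2 ratio of -0.05 (SD 0.32) over the 8 WT libraries, higher in 3 of 8, with p = 0.688 by an exact two-sided sign-flip permutation test (adjusted over the 9 genes, 0.961). Igf2 had a mean log2 ratio of 0.08 (SD 0.18), higher in 6 of 8, with an exact permutation p of 0.273 (adjusted, 0.633). The other 7 genes had means of -0.39 (Igf1, SD 1.31, 6 libraries) to 0.00 and adjusted p-values of 0.633 to 0.961 by the same exact test, whose smallest possible p was 0.0078125 with 8 libraries and 0.03125 with 6. These p-values do not show that the levels are equal, and E7.5 WT A, with 14 such cells, had an H19 ratio of 1.47.

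The antisense transcripts of these loci were counted apart, by strand. Igf2os, the antisense RNA that overlaps Igf2 by 7.12 kb, measured 4.66 and 6.48 CPM in WT and 8.47 and 8.94 CPM in null libraries at E7.5. At E8.5 it measured 4.75 and 5.28 CPM in WT and 7.45 and 11.1 CPM in null, and at E9.5 4.97 to 7.61 CPM in the 4 WT and 10.4 to 11.2 CPM in the 4 null libraries. Every null library thus lay above the WT libraries of its stage, and this was not tested. Null lay wholly above WT in 12.7% of all gene and type pairs at E7.5, 14.7% at E8.5 and 4.83% at E9.5. Those shares were counted within cell types, whereas the Igf2os values are per library. Airn, which overlaps Igf2r by 28.4 kb, measured 4.40 to 15.8 CPM over both groups.

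The receptors had median differences between -0.17 and 0.02 on the log2 scale at the 3 stages, and neither they nor the ligand Igf1 were marked in any type tested, again as a description. Igf2r, the receptor that clears IGF2, averaged 57.1 ± 1.96 CPM in WT and 57.1 ± 3.75 CPM in null E9.5 libraries (SD, n = 4 each), with a median log2 fold change of -0.01 over 37 types (range -0.23 to 0.40). At E7.5 and E8.5 its medians were -0.16 and -0.08. Igf1r, the signalling receptor, averaged 86.2 ± 6.14 CPM in WT and 81.1 ± 5.15 CPM in null at E9.5 (median -0.05). Its widest difference was in E8.5 Erythroid cells, where it measured 20 and 38.5 CPM in WT and 46.1 and 63.0 CPM in null (0.86, SE 0.23). Insr, the insulin receptor, averaged 12.6 ± 1.02 CPM in WT and 11.1 ± 0.19 CPM in null at E9.5 (median -0.17 over 32 types), and its widest difference was in E7.5 Mesenchyme, with 11 and 10.2 CPM in WT and 6.14 and 3.44 CPM in null (-0.98, SE 0.36). Igf1 reached the filter on low counts in 0 types at E7.5, 2 at E8.5 and 16 at E9.5. Its 2 types at E8.5 were Cranial mesoderm (0.77, SE 0.63) and Sclerotome (0.84, SE 0.38), with null above WT without overlap in the second. At E9.5 it had a median of 0.05, averaged 11.7 ± 3.01 CPM in WT and 11.2 ± 1.48 CPM in null, and differed most in Pharyngeal mesoderm (1.15, SE 0.58), where the libraries overlapped. Without E8.5 null B, with a single null library left, the Igf1 median over 11 E8.5 types was -0.02.

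The 3 RNA-binding proteins had medians from -0.13 to 0.07 over the stages and no mark. Igf2bp2 lay below 0 in 7 of 7 types at E7.5, 19 of 20 at E8.5 and 22 of 37 at E9.5, with the null libraries wholly below the WT libraries in 3, 12 and 4 of them, beside the 18.5%, 17.7% and 4.68% of all pairs given above. For Igf2bp3 this was so in 1, 8 and 4 types and for Igf2bp1 in 0, 5 and 4. On the other side, null lay wholly above WT in 0, 0 and 1 types for Igf2bp2, 1, 0 and 2 for Igf2bp3 and 1, 0 and 4 for Igf2bp1. The shares of all pairs on that side were 12.7%, 14.7% and 4.83%. Igf2bp1 averaged 393 ± 14.5 CPM in WT and 388 ± 13.1 CPM in null at E9.5, Igf2bp2 163 ± 6.22 CPM and 160 ± 6.99 CPM, and Igf2bp3 191 ± 4.52 CPM and 190 ± 3.30 CPM (SD, n = 4 each). The widest differences of Igf2bp2 were in blood types: in E9.5 EMP it measured 79.1 to 87.9 CPM in the 4 WT libraries and 43.8 and 45.3 CPM in null A and D (-0.92, SE 0.14), and in E8.5 Erythroid cells 5.91 and 12.2 CPM in WT and 4.64 and 3.78 CPM in null (-1.03, SE 0.31). In EMP it passed the adjusted p without the fold threshold, and with no filter on low counts it was called lower in 1 E8.5 type. Igf2bp3 was also lowest against WT in E8.5 Erythroid cells, with 19.8 and 28.1 CPM in WT and 15 and 15.3 CPM in null (-0.68, SE 0.16). For Igf2bp1 the largest value was 0.30 (SE 0.10) in E9.5 Spinal cord progenitors, with 286 to 341 CPM in 3 WT libraries and 377 to 386 CPM in 3 null libraries.

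In WT host cells of the E9.5 chimeras H19 and Igf2 were highest in the same 3 extra-embryonic types and lowest in the neural tube. H19 averaged 3387 ± 110 CPM in YS mesothelium (SD, n = 3), 1806 ± 99.1 CPM in Amniotic ectoderm (n = 2) and 1771 ± 105 CPM in Allantois (n = 3), around a median of 613 CPM over 40 types. It was lowest in Ventral hindbrain progenitors at 82.7 ± 27.3 CPM, Hindbrain neural progenitors at 79.0 ± 25.7 CPM and Dorsal spinal cord progenitors at 72.2 ± 21 CPM (n = 4 each). Igf2 averaged 1512 ± 278, 939 ± 136 and 765 ± 147 CPM in the same 3 leading types and was lowest in Midbrain/Hindbrain boundary (26.8 ± 10.4 CPM), Ventral hindbrain progenitors (26.5 ± 8.33 CPM) and Dorsal spinal cord progenitors (25.6 ± 5.85 CPM). Of 39 pairs of neighbours in each order, 37 for H19 and 36 for Igf2 overlapped between libraries, so most neighbours were not set apart. YS mesothelium was, with H19 at 3313 to 3514 CPM against 1736 to 1876 CPM in Amniotic ectoderm and Igf2 at 1194 to 1705 CPM against 843 to 1035 CPM, while the 3 lowest types overlapped, at 41.5 to 111 CPM for H19 and 15.7 to 36.8 CPM for Igf2. Across the 40 types the gene most like H19 among 8293 was Igf2 (Pearson r = 0.93 of log2 CPM), followed by Lamb1 (0.85), Phlda3 (0.84), Igf2r (0.83) and Rbms1 (0.82). Those most like Igf2 were H19 (0.93), Creb3l2 (0.90), Igf2r (0.89), Lamb1 (0.89) and Zfp568 (0.88). These are descriptions over cell types that share libraries. Erythroid cells broke the pairing, with H19 at 767 to 1036 CPM and Igf2 at 20.9 to 36.7 CPM in the 4 WT E9.5 libraries.

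The receptors and binding proteins had orders of their own. Igf2r was highest in Allantois (270 ± 36.6 CPM), Epicardium (221 ± 27.2 CPM) and YS mesothelium (200 ± 10.2 CPM) and lowest in EMP (7.23 ± 4.93 CPM), below Megakaryocyte progenitors (8.83 CPM) and Erythroid cells (12 CPM). Igf1 was concentrated in a few types, led by Cranial mesoderm (122 ± 45.1 CPM), Venous endothelium (72.8 ± 25.4 CPM) and Epicardium (23.6 ± 7.96 CPM), with 12 of 40 types at 10 CPM or more and 0 UMIs in Limb ectoderm and Somitic mesoderm. Igf1r was highest in Thyroid primordium (155 ± 2.81 CPM), Somitic mesoderm and Limb ectoderm, and lowest in Erythroid cells (23.6 ± 4.98 CPM). Insr ran from 26.4 ± 4.93 CPM in Thyroid primordium to 6.27 ± 2.47 CPM in Erythroid cells, with every pair of neighbours overlapping. For Igf2r, Igf1, Igf1r and the Igf2bp genes 35 to 38 of 39 pairs overlapped, so most neighbours were not set apart. Igf2r in EMP, at 2.37 to 14.1 CPM, overlapped both types named above it. The 3 Igf2bp genes shared their lowest types, being lowest in Erythroid cells (70.1 CPM for Igf2bp1, 14.3 CPM for Igf2bp2 and 21.3 CPM for Igf2bp3), next in Megakaryocyte progenitors. Their highest types were Ventral hindbrain progenitors for Igf2bp1 (453 ± 22.7 CPM), Thyroid primordium for Igf2bp2 (207 ± 38.5 CPM) and Epidermis for Igf2bp3 (267 ± 25.8 CPM).

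**Figure D5:**
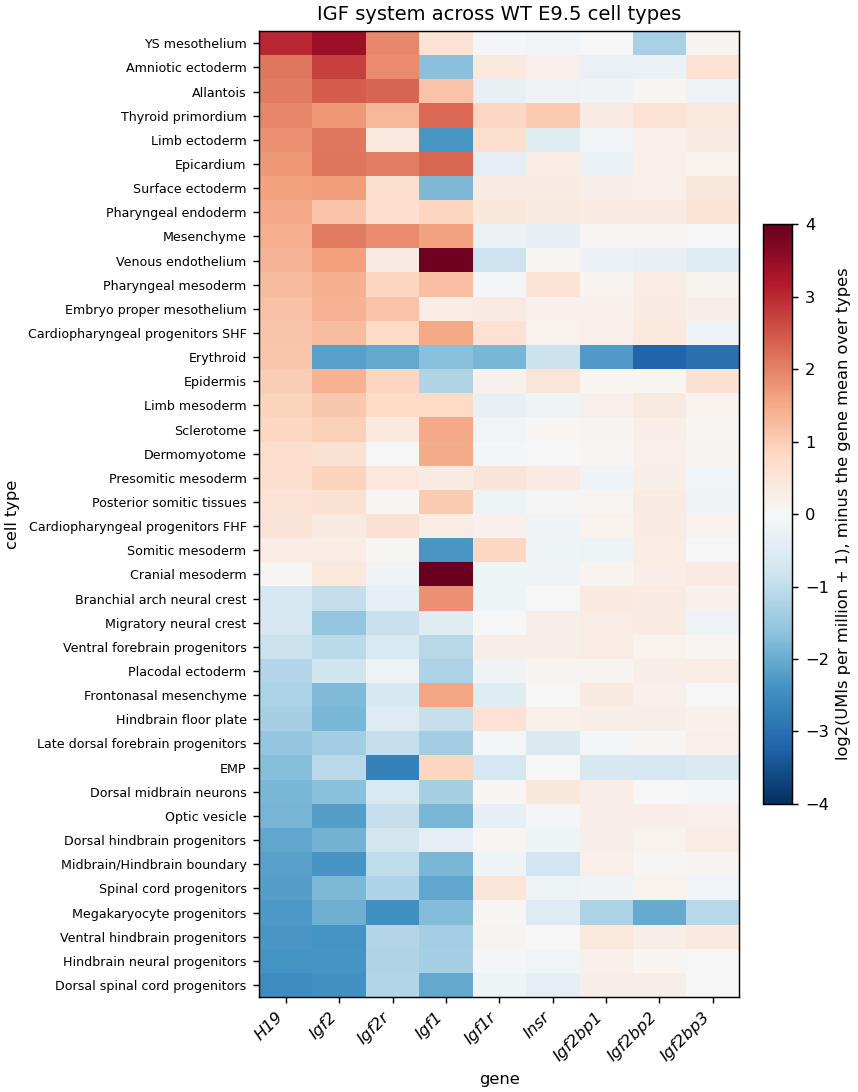
Level of the 9 genes in 40 WT E9.5 cell types, as log2(CPM + 1) minus the gene's mean over types, with types ordered by H19. YS mesothelium, at 3387 CPM of H19 and 1512 CPM of Igf2, heads the order, neural tube types close it, and Erythroid cells are low in Igf2 and the 3 Igf2bp genes.

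The tissue pattern was tested by setting mesoderm against neural tube within each E9.5 library (edgeR quasi-likelihood test with library as a block, Benjamini-Hochberg adjustment). In WT libraries H19 measured 706, 712, 689 and 754 CPM in mesoderm and 107, 70.8, 114 and 142 CPM in neural tube of A to D. The log2 fold change was 2.78 (SE 0.19, edgeR adjusted p = 0.000847). The mesoderm levels were summed over 735, 656, 580 and 1244 cells of A to D, whereas the test used 712, 647, 576 and 1227 cells. Igf2 measured 295, 283, 255 and 273 CPM in mesoderm and 34.6, 22.2, 37.7 and 48.4 CPM in neural tube (3.01, SE 0.24, adjusted p = 0.00142). Igf2r (1.57, SE 0.06, adjusted p = 1.46e-08) and Igf1 (4.18, SE 0.24, adjusted p = 1.48e-05) were also higher in mesoderm, Igf1 from 12.4 to 29.7 CPM against 0.914 to 1.34 CPM. These 4 called genes compare with 7.62% of genes called higher and 10.8% called lower in WT. Igf1r lay at -0.17 (SE 0.05), Igf2bp2 at 0.18 (SE 0.03) and Igf2bp1 at -0.08 (SE 0.03), all under the fold threshold although past the adjusted p, while Insr (0.04) and Igf2bp3 (0.00) did not pass it. In the null libraries, where 7.72% of genes were called higher and 11.3% lower, the same 4 genes were called, Igf2 at 3.26 (SE 0.24), Igf2r at 1.52 (SE 0.06), Igf1 at 4.22 (SE 0.34) and H19 at 1.63 (SE 0.27). H19 there measured 14.7, 14.8, 13.1 and 118 CPM in mesoderm and 5.60, 5.92, 3.80 and 27.5 CPM in neural tube of null A to D. Mesoderm was thus the higher in each null library. What part WT cells in the null sort or free RNA have in these H19 values was not tested. Without null D the tissue contrast was 1.34 for H19 (SE 0.18, edgeR adjusted p = 0.00175) and 3.35 for Igf2 (SE 0.31, adjusted p = 0.0113). Over each null library left out in turn it was 1.34 to 1.86 for H19 and 3.05 to 3.37 for Igf2. The difference between the genotypes' tissue contrasts was not tested.

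Among WT cells Igf2 and Igf2r rose from E7.5 to E8.5 in both types that could be compared, where 5.35% of gene and type pairs were called higher and 3.33% lower. In Lateral plate mesoderm Igf2 went from 158 and 166 CPM to 507 and 398 CPM (log2 fold change 1.57, SE 0.11, adjusted p = 2.41e-08 by edgeR's quasi-likelihood test), and in Mesenchyme from 371 and 351 CPM to 882 and 608 CPM (1.07, SE 0.15, adjusted p = 0.000403). Igf2r went from 95.6 and 63.8 CPM to 174 and 157 CPM in the first (1.2, SE 0.18, edgeR adjusted p = 0.00113) and from 158 and 85.9 CPM to 292 and 275 CPM in the second (1.22, SE 0.27, adjusted p = 0.0183). H19 had values of 0.87 and 0.52, under the fold threshold. The 4 calls among the 9 genes fell to 1 when E7.5 WT B was left out, and 8 were made when E8.5 WT A was.

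From E8.5 to E9.5, over 31 types with 2.16% of pairs called higher and 1.02% lower, few values passed. H19 rose in Erythroid cells, from 389 and 332 CPM to 767 to 1036 CPM (1.53, SE 0.14, edgeR adjusted p = 4.56e-05), and in Migratory neural crest, from 106 and 95 CPM to 228 to 323 CPM (1.23, SE 0.13, adjusted p = 5.92e-05), with a median of 0.41 over the 31 types. Igf2 rose in Branchial arch neural crest, from 31.5 and 25.2 CPM to 64.5 to 84.0 CPM (1.13, SE 0.15, edgeR adjusted p = 4.64e-06). Igf1 rose in Limb mesoderm from 0.403 and 0.654 CPM to 5.49 to 12.4 CPM (3.71, SE 0.80, edgeR adjusted p = 0.00866), in Mesenchyme (3.38, SE 0.52, adjusted p = 0.00017) and in Pharyngeal endoderm (4.54, SE 0.85, adjusted p = 0.00106). The other 6 genes had no call, with medians of -0.24 (Igf2r) to 0.12 (Insr). The 6 calls became 13 without E8.5 WT A.

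The rest of the pathway was read from lists, also chosen with earlier results known, of binding proteins and their partners, adaptors and downstream kinases, and neighbours of H19 and Igf2 on chromosome 7. Between null and WT cells 10 of 13, 17 of 17 and 14 of 18 genes of these lists were tested in at least 1 type at E9.5. The adaptor Grb10, an imprinted inhibitor of insulin and IGF receptor signalling, accounted for nearly every call: it was lower in null cells in 37 of 64 comparisons (7 of 7 types at E7.5, 0 of 20 at E8.5 and 30 of 37 at E9.5), with medians of -5.95, -1.41 and -4.69, beside 0.104%, 0.0325% and 0.0646% of all pairs called lower at the 3 stages. Without E8.5 null B the E8.5 median of Grb10 was -4.64, and without null A it was -0.16, each with a single null library left. At E8.5 null B was at the WT level of Grb10, while H19 in that library was the lowest of the stage. Igfbp3, which carries IGFs in the extracellular fluid, fell in E9.5 Amniotic ectoderm (-3.26, SE 0.36) and Limb mesoderm (-1.44, SE 0.21), and Igfbp5 rose in Late dorsal forebrain progenitors (1.35, SE 0.18), where 0.0646% of all E9.5 pairs were called lower and 0.0566% higher. None of the other 16 adaptors and kinases was called, nor any neighbour on chromosome 7, over 78 tests at E7.5, 204 at E8.5 and 357 at E9.5 with median log2 fold changes of -0.09, 0.00 and -0.04, among them Cdkn1c, Kcnq1ot1 and Phlda2 of the adjoining imprinted domain. The E8.5 count over the lists, 0, became 46 calls when null B was left out, 12 when null A was, and 3 or 2 with a single WT library (B or A). The E7.5 count of 7 became 12 with null A as the lone null library and 11 with WT B as the lone WT library.

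Among WT cells mesoderm against neural tube gave 8 genes higher and 3 lower of 40 tested, beside 7.62% and 10.8% of all genes, led by Th, the rate-limiting enzyme of catecholamine synthesis, at -4.15 (SE 0.29, edgeR adjusted p = 2.04e-07), then Tnni2 (3.51), Phlda2 (2.95), Lsp1 (2.14), Tnnt3 (2.11) and Igfbp4 (1.76). From E7.5 to E8.5 11 of 69 tests were called in 10 genes, beside 5.35% of all pairs called higher and 3.33% lower, led by Igfbp5, which rose in Mesenchyme (5.64, SE 0.67) and Lateral plate mesoderm (3.92, SE 0.42), followed by Stc2 (2.95), Slc22a18 (-2.61), Htra1 (-2.60), Tnni2 (2.34) and Grb14 (-2.32). From E8.5 to E9.5 38 of 926 tests were called lower and 40 higher, in 18 genes, beside 1.02% and 2.16% of all pairs, with the widest values for Igfbp3 (3.64 in Dermomyotome), Irs4 (-3.58 in Hindbrain floor plate), Phlda2 (-3.56 in Presomitic mesoderm), Stc2 (-2.90 in Cranial mesoderm), Stc1 (-2.69 in Migratory neural crest) and Cdkn1c (2.59 in Migratory neural crest). Cdkn1c, a cell cycle inhibitor, rose in 13 of its 31 types.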

How the data were processed

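Counts were deposited by the authors as a matrix of UMIs per gene and cell, with a table of doublet calls, cell types and the percent of mitochondrial counts per cell. Per the labels and methods the reads came from 10x 3' v3 libraries and were counted with Cell Ranger against mm10 with the reporter added. Whole barcodes numbered 192657 and genes 29453. The 9 genes and the lists were chosen with earlier results of these data known. Imprinted genes, which the study removed before its comparisons, were kept; 8168 genes (predicted, Y-linked, globin, ribosomal protein and mitochondrial ones, Xist and Tsix, the reporter) did not enter the tests. Columns of per-sample values not used numbered 0. Here doublets were dropped, as were tdTomato UMI carriers among the WT-sorted cells, and UMIs were summed per library and cell type (over 15 cells in at least 2 libraries per genotype). Leaving out a library at E7.5 or E8.5 left a single library in its group. There this minimum did not apply, and the spread came from the other group alone. Sums were fitted with edgeR 4.0.16 in R 4.3.3 (filterByExpr, TMM, robust quasi-likelihood test), p-values were adjusted by Benjamini-Hochberg within a type, and a call needed an adjusted p under 0.05 and an absolute log2 fold change over 1. CPM are UMIs scaled to 1000000 per sum. All 9 genes are named. Of the lists, genes with 3 or more calls between genotypes, otherwise the 2 with most calls, and up to 6 genes with the largest called change per WT comparison are named. Cell types are the 3 highest, 3 lowest and 3 most different per gene. Genes alike were taken from those with a mean of at least 10 CPM, on log2(CPM + 1). WT-sorted tdTomato+ cells entered at 5 expected UMIs. The study's embryo pool could not be used as a block, since the files' library names match no sample title. The fits were tested on simulated data with a single spread for all genes and no difference between libraries of a group beyond depth. That test does not cover genes on which the libraries of a group split, such as H19 at E8.5. Alternatives were no fold threshold, no filter, over 50 cells, null cells with a tdTomato UMI, DESeq2 1.42.0, no thinning, stricter cuts for tdTomato+ cells, and leaving out each library. The reading of Igf2 by H19 UMIs and the null E9.5 means, tissue contrast and E8.5 Grb10 without single libraries were added after the data were seen.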

Additional observations from a re-analysis of the deposited data

Results flagged for a closer look

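Each value below is a library far from the other 3 of its group, the gap to the nearest of them divided by the group's range being past Dixon's critical value for 4. Chance alone marks about 1 in 20 such groups, and 18 groups were tested. At E9.5 these were H19 in null D (gap over range 0.887, at 91.3 CPM), Igf2r in WT C (0.902, at 54.2 CPM), Igf1r in null D (0.884, at 73.5 CPM) and Igf2bp3 in null C (0.877, at 195 CPM). Null D was thus marked for H19 on the high side and for Igf1r on the low side, with the other null libraries at 12.6 to 21.5 CPM and 83.0 to 84.2 CPM. What sets these libraries apart was not tested.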

How the results depend on the processing

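Of 308 alternative values 245 kept their direction and stayed near the reported value, 50 moved and 13 turned sign; the lower H19 and the higher median Igf2 of null cells held at each stage in every alternative that gave a value (E7.5 gave none with over 50 cells per type). Calls among the 9 genes went, with no fold threshold, from 1 to 3 (E8.5), from 13 to 29 (E9.5), from 4 to 9 (WT E8.5 against E7.5), from 6 to 32 (WT E9.5 against E8.5) and from 4 to 7 (tissue). With no filter on low counts they were 4, 20 and 11 at E8.5, E9.5 and for WT E9.5 against E8.5, with over 50 cells 0 at E8.5, and with DESeq2 27 at E9.5. List calls were 1 (no fold threshold) and 5 (no filter) at E8.5 in place of 0, and 13 (over 50 cells) at E9.5 in place of 33. The E8.5 Igf2 median was 0.23 with over 50 cells. Without thinning, the median share of cells with H19 over libraries, in the kept types, was 99.9, 99.3 and 99.9% in WT at the 3 stages. In null it was 32.7, 40.7 and 22.1%, with E8.5 null A and B at 66.1 and 15.3% and E9.5 null D at 59.0%. The share with Igf2 was 94.7, 82.2 and 95.8% of WT and 99.1, 89.8 and 99.5% of null cells. In tdTomato+ WT-sorted cells Igf1 turned to 0.29 (20 expected UMIs, 2 libraries), and Igf1r to -0.036 (20 expected) and -0.39 (at least 2 tdTomato UMIs). Leaving out single libraries gave 8 to 12 (E7.5), 3 to 29 (E8.5), 8 to 25 (E9.5), 1 to 8 (WT E8.5 against E7.5) and 6 to 13 (WT E9.5 against E8.5) calls among the 9 genes, 8 to 12 and 2 to 46 list calls at E7.5 and E8.5, 0 to 36 Grb10 calls at E8.5, H19 medians of -3.61 to -2.97, -6.10 to -1.33 and -4.69 to -3.66 at the 3 stages, an E8.5 Igf2 median of 0.34 to 0.77, and means in tdTomato+ WT-sorted cells of -0.13 to 0.014 (H19), -0.53 to 0.14 (Igf1), -0.036 to 0.049 (Igf1r) and -0.050 to 0.026 (Igf2bp2). The shares of all gene and type pairs called under these alternatives were not counted. The causes were not tested. No paired analysis was possible because the files' library names match no sample title, so no library could be tied to its embryo pool. At E9.5 Igf1 and Insr passed the filter on low counts in 16 and 32 of 37 types, and with 2 libraries per group at E7.5 and E8.5 a count of calls is not precise.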
